A study of Mus musculus with 38 samples.

Results

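Leukaemias started by MLL-AF10 were compared with leukaemias started by MLL-ENL, across all genes measured in whole bone marrow. The members were chosen by their titles: 8 arrays labelled MLL-AF10 and 7 labelled MLL-ENL, 15 of the 38 arrays in the series, with 1 array for each mouse. In both groups marrow progenitors carrying the c-kit receptor were infected with a retrovirus bearing the fusion oncogene and transplanted into lethally irradiated C57BL/6 recipients of the same strain, male or female. Marrow was taken when the leukaemic mice were killed, stored frozen, and its RNA was labelled with biotin for an Affymetrix array. The same procedure gave 19 leukaemias of other fusions (MLL-AF1p in 9 mice, MLL-GAS7 in 5 and MLL-AF9 in 5), and 4 marrow samples from normal mice served as controls. The fusion came from a virus whose promoter the labels do not name, not from the mouse locus, and they give no ages. Mice are named as in the labels, for example MLL-ENL_701.

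MLL, the product of Kmt2a in the mouse, is a histone methyltransferase that keeps developmental genes such as the HoxA cluster active in early blood cells. Chromosome breaks in acute leukaemia join its front part, which holds the fused protein at those genes, to a partner protein that helps drive them. AF10 (gene Mllt10) and ENL (gene Mllt1) are both nuclear partners linked to DOT1L, the enzyme that methylates lysine 79 of histone H3. AF10 binds DOT1L directly, and ENL reads acetylated histones and belongs both to the DOT1L complex and to the super elongation complex that releases paused RNA polymerase. The comparison asks where leukaemias of these partners differ in gene expression.

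Levels are given as log2(intensity + 46.1) with all array medians made equal, and a difference is the MLL-AF10 mean minus the MLL-ENL mean with its standard error (SE) from limma. Genes with a Benjamini-Hochberg adjusted p under 0.05, taken over all 13333 genes tested, are referred to as called. Whole marrow holds a mixture of cells, so more cells of a type and more RNA per cell cannot be told apart here. The median deposited intensity ran from 133.7 to 176.5 over the 15 arrays. Correlation between arrays across genes had a median of 0.948 within MLL-AF10, 0.955 within MLL-ENL and 0.938 between them, and genes are not independent replicates. None of the first 6 principal components of the 15 arrays separated the groups.

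In all, 312 genes (2.34% of those tested) differed between the leukaemias, 110 higher in MLL-AF10 (0.825%) and 202 higher in MLL-ENL (1.52%). At least 2-fold differences numbered 48 (0.36%) and 39 (0.293%) in the same order. The median difference of all genes was -0.08, so the arrays' common scale lay slightly toward MLL-ENL. The share of calls that was higher in MLL-AF10 depended on scaling. It was 35.3% with equal array medians, 50.4% of 558 calls with the values as deposited and 48.9% of 505 calls after quantile normalization. All 312 genes kept their direction under both scalings. Leaving out 1 array gave between 155 calls (without MLL-ENL_741) and 404 (without MLL-AF10_783A). The count fell by more than 1.5 times without MLL-AF10_805A (180), MLL-AF10_782A (202), MLL-AF10_797A (174), MLL-ENL_701 (198), MLL-ENL_760 (193), MLL-ENL_741, MLL-ENL_703 (166) and MLL-ENL_774 (204). The 8 and 7 arrays did not overlap for 188 genes (1.41%), 39 higher in MLL-AF10 (0.293%) and 149 in MLL-ENL (1.12%), and 107 of the 188 were also called.

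**Figure D1:**
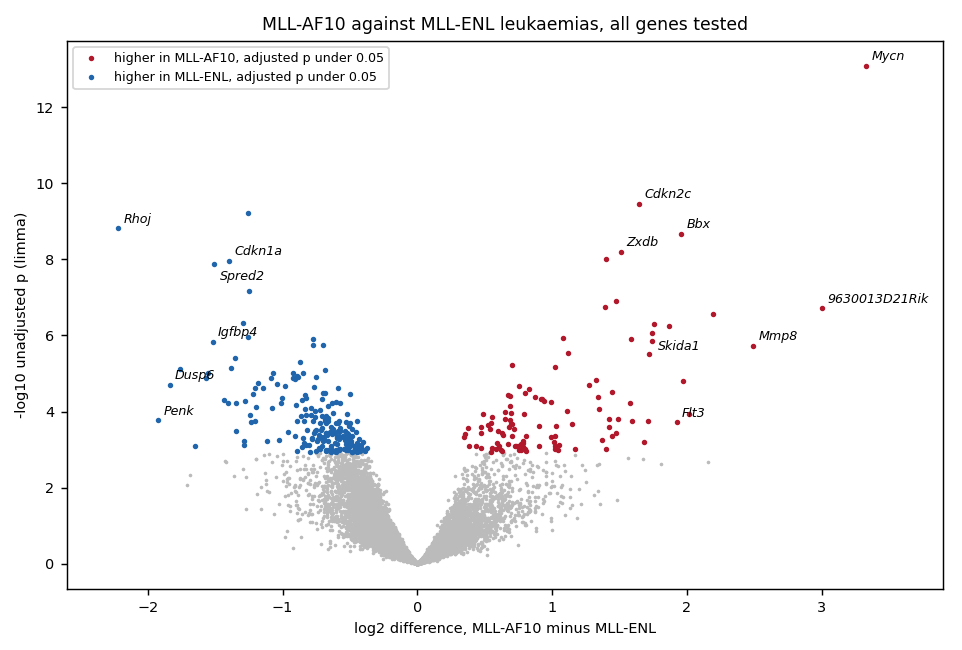
Log2 difference between MLL-AF10 and MLL-ENL (x axis) against -log10 of the unadjusted limma p (y axis) for the 13333 genes tested, with called genes in colour. Mycn lies apart at 3.33, and there are 202 blue and 110 red points, of which 39 and 48 differ at least 2-fold.

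Mycn, a transcription factor of the MYC family that drives growth and is expressed in embryonic tissue and neural tumours, showed the largest difference among the genes tested. Its level in MLL-AF10 was 15.04 at the lowest, 15.38 at the median and 16.21 at the highest, against 11.60, 12.15 and 12.68 in MLL-ENL. Every MLL-AF10 mouse lay more than 2 log2 units above every MLL-ENL mouse. The difference was 3.33 ± 0.29 (SE, n = 8 and 7), or 10.1-fold (limma adjusted p = 1.07e-09). The other fusion cohorts lay near MLL-ENL, between 10.22 and 13.16 over the 19 mice, and normal marrow lay between 6.58 and 7.87 (n = 4). Against the mean of MLL-AF1p, MLL-GAS7 and MLL-AF9, MLL-AF10 was higher by 3.76 ± 0.24 (limma adjusted p = 6.39e-14) and MLL-ENL by 0.43 ± 0.25 (limma adjusted p = 0.325). Those contrasts share the 19 arrays. The value rests on 1 probe set: another, dimmer Mycn probe set gave -0.05 ± 0.28 (limma adjusted p = 0.944 over probe sets). Of its family, Myc itself gave -0.68 ± 0.31 and was not called (limma adjusted p = 0.227).

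The 250 bases before the Mycn start are shown because it carries the largest difference among the genes tested, which leave out probe sets without a single gene symbol. They come from the RefSeq promoter table (GRCm38.p6, chr12:12941837-12942086, minus strand, written 5′ to 3′ along the gene), and capitals mark the E2F motif TTTGGCGC or TTTCGCGC on either strand.
Mycn: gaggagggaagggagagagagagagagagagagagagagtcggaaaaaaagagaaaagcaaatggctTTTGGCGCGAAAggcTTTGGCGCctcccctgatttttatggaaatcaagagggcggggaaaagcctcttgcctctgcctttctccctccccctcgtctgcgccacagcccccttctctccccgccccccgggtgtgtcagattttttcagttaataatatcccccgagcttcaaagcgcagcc
It holds 3 matches, a pair of which overlap, and 0.654% of the 32851 promoter windows in the table hold at least 1. A match is a run of letters, not a measured binding site.

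A group of cell cycle inhibitors and G1 cyclins differed in opposite directions. Of 18 measured genes in that list 1 was higher in MLL-AF10 and 3 in MLL-ENL (beside 0.825% and 1.52% of all genes), with a list median of -0.20 beside -0.08 for all genes. Cdkn2c, which encodes the p18 inhibitor of CDK4 and CDK6, ran from 12.26 through a median of 12.78 to 13.29 in MLL-AF10 and from 10.54 through 11.30 to 11.39 in MLL-ENL. The ranges did not overlap, and the difference was 1.65 ± 0.19 (limma adjusted p = 2.26e-06), or 3.13-fold. Normal marrow lay in between, from 11.52 to 12.20. The RefSeq order of measured genes places 9630013D21Rik, a non-coding RNA gene, next to Cdkn2c. It was named after its values were seen: it ran from 7.44 to 10.44 in MLL-AF10 and from 5.68 to 6.71 in MLL-ENL, an 8.02-fold difference (95% interval 2.05 to 3.96 on the log2 scale, limma adjusted p = 0.000195).

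Cdkn1a, which encodes the p21 inhibitor of cyclin-dependent kinases, went the other way. It ran from 8.93 through a median of 9.19 to 9.58 in MLL-AF10 and from 10.12 through 10.67 to 10.99 in MLL-ENL. No MLL-AF10 mouse reached an MLL-ENL mouse, and the difference was -1.40 ± 0.19 (limma adjusted p = 1.80e-05), or 2.63-fold. Cyclin D1 (Ccnd1) was higher in MLL-ENL by 1.23 on the log2 scale (difference -1.23 ± 0.30, limma adjusted p = 0.0191), with ranges of 8.34 to 10.37 and 9.28 to 10.78 that overlapped. That call was lost without MLL-ENL_760 or MLL-ENL_741, and with the 3′ to 5′ ratio of actin (limma adjusted p = 0.0878) or of Gapdh (limma adjusted p = 0.0754) as a covariate. The Ccnd1 difference was -0.43 and -2.04 in 2 sets of arrays that Rab5c and Prrc2a tell apart (low and high). Cyclin D2 (Ccnd2, -0.71 ± 0.19, limma adjusted p = 0.0422) was called but lost the call in 10 of the 15 fits that each left out 1 array, and Ccnd3 (-0.09) was not called. Cdkn1a also belongs to the 14 measured p53 target genes, of which 2 were called, both higher in MLL-ENL (beside 1.52% of all genes). The other was Ccng1, cyclin G1 (-0.78 ± 0.20, limma adjusted p = 0.0317), which did not overlap between the groups but lost its call in 7 of those fits. Mdm2 (-0.29), Bbc3 (-0.45) and Sesn2 (-0.01) were not called.

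The Ras-ERK feedback list, mostly inhibitors that ERK activity induces and that in turn damp it, was the list whose median differed most toward MLL-ENL. Of 11 measured genes 4 were called, each higher in MLL-ENL (beside 1.52% of all genes), and 10 of 11 differences were negative. The list median was -0.71. Dusp6, a phosphatase that removes phosphate from ERK, ran from 8.08 through a median of 9.72 to 10.40 in MLL-AF10 and from 9.65 through 11.70 to 11.87 in MLL-ENL. In 6 of 7 MLL-ENL mice it lay above every MLL-AF10 mouse, the exception being MLL-ENL_742 at 9.65. The difference was -1.84 ± 0.38 (limma adjusted p = 0.00501), or 3.58-fold.

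Spred2, which holds Raf inactive, ran from 7.97 through 8.65 to 9.83 in MLL-AF10 and from 9.91 through 10.26 to 10.53 in MLL-ENL, with no overlap (-1.51 ± 0.21, limma adjusted p = 1.98e-05). Another Spred2 probe set was called (-1.07), and a further one was not (-0.46, limma adjusted p = 0.184 over probe sets). Spry2, a Sprouty inhibitor of receptor signalling, also did not overlap, at 8.90 to 9.82 and 9.99 to 10.46 (-0.89 ± 0.21, limma adjusted p = 0.0184), though another Spry2 probe set was not called (-0.45). The nuclear phosphatase Dusp2 ran from 8.92 to 9.76 and from 9.59 to 10.80 (-0.84 ± 0.20, limma adjusted p = 0.0184). The Dusp2 call was lost without MLL-ENL_760 and with the 3′ to 5′ ratio of actin or of Gapdh as a covariate (for Gapdh -0.70, limma adjusted p = 0.0994). The members not called were Spred1 (-0.82), Dusp5 (-0.71), Etv5 (-0.41), Spry1 (-0.27), Spry4 (-0.06), Dusp10 (0.00) and Dusp1 (0.34). Normal marrow lay between the groups for Dusp6 (mean 10.25) and Spred2 (mean 9.34), and below both for Spry2 (8.20).

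Of 20 immediate early and heat shock genes 1 was called (beside 1.52% of all genes), while 13 of 20 had an unadjusted p under 0.05 (18% of all genes did). In that list 14 differences were negative and the median was -0.46. The called gene was Egr1, a zinc finger factor that growth signals induce. It ran from 7.67 through 8.03 to 8.76 in MLL-AF10 and from 8.16 through 9.76 to 10.25 in MLL-ENL, where MLL-ENL_742 alone fell within the MLL-AF10 range. The difference was -1.41 ± 0.31 (limma adjusted p = 0.00924). The AP-1 genes Fos (-1.16, limma adjusted p = 0.241), Junb (-0.75, limma adjusted p = 0.0955) and Jun (-0.77, limma adjusted p = 0.0798) were not called. Nab2, which binds EGR1 and represses its activity, was looked at after its values were seen and was also higher in MLL-ENL (-1.07 ± 0.21, limma adjusted p = 0.00321). Gadd45b, a stress-induced gene looked at in the same way, gave -1.09 ± 0.22 (limma adjusted p = 0.00388).

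The 250 bases before the start of the 4 called Ras-ERK feedback genes are shown because these genes moved together. They are from the same table, written 5′ to 3′ along each gene, and lie at chr10:99262981-99263230 (Dusp6, plus strand), chr11:19924192-19924441 (Spred2, plus), chr14:105896820-105897069 (Spry2, minus) and chr2:127335909-127336158 (Dusp2, plus). Capitals mark the CRE motif TGACGTC and the E-box CACGTG, searched on both strands together with the E2F motif, the ETS motif CCGGAAG and the CArG box, which serum response factor binds.
Dusp6: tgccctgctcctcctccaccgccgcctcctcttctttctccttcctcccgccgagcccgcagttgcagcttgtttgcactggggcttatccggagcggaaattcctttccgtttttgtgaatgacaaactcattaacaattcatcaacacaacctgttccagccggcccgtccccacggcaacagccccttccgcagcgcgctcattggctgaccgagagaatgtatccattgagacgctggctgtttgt
Spred2: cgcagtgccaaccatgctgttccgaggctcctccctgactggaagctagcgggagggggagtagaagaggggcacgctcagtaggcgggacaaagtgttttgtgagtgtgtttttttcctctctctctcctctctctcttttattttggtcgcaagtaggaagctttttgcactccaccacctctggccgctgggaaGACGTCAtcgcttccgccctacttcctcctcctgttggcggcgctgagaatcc
Spry2: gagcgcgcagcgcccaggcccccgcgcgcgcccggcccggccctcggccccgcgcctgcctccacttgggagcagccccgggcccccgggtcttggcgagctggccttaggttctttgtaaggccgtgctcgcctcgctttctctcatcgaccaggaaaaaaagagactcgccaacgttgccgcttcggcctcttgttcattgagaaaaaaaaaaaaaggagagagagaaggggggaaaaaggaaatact
Dusp2: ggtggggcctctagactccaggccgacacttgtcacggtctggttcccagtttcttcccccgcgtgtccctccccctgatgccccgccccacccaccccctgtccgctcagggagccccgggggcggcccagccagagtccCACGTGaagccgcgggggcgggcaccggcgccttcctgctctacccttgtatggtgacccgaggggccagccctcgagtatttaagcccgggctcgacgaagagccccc
Spred2 holds the CRE motif once (2.78% of all windows hold it) and Dusp2 the E-box once (6.02%), and no motif of the 5 was found in more than 1 of the 4 windows. The ETS motif stands in 6.91% of all windows and the CArG box in 1.47%.

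**Figure D2:**
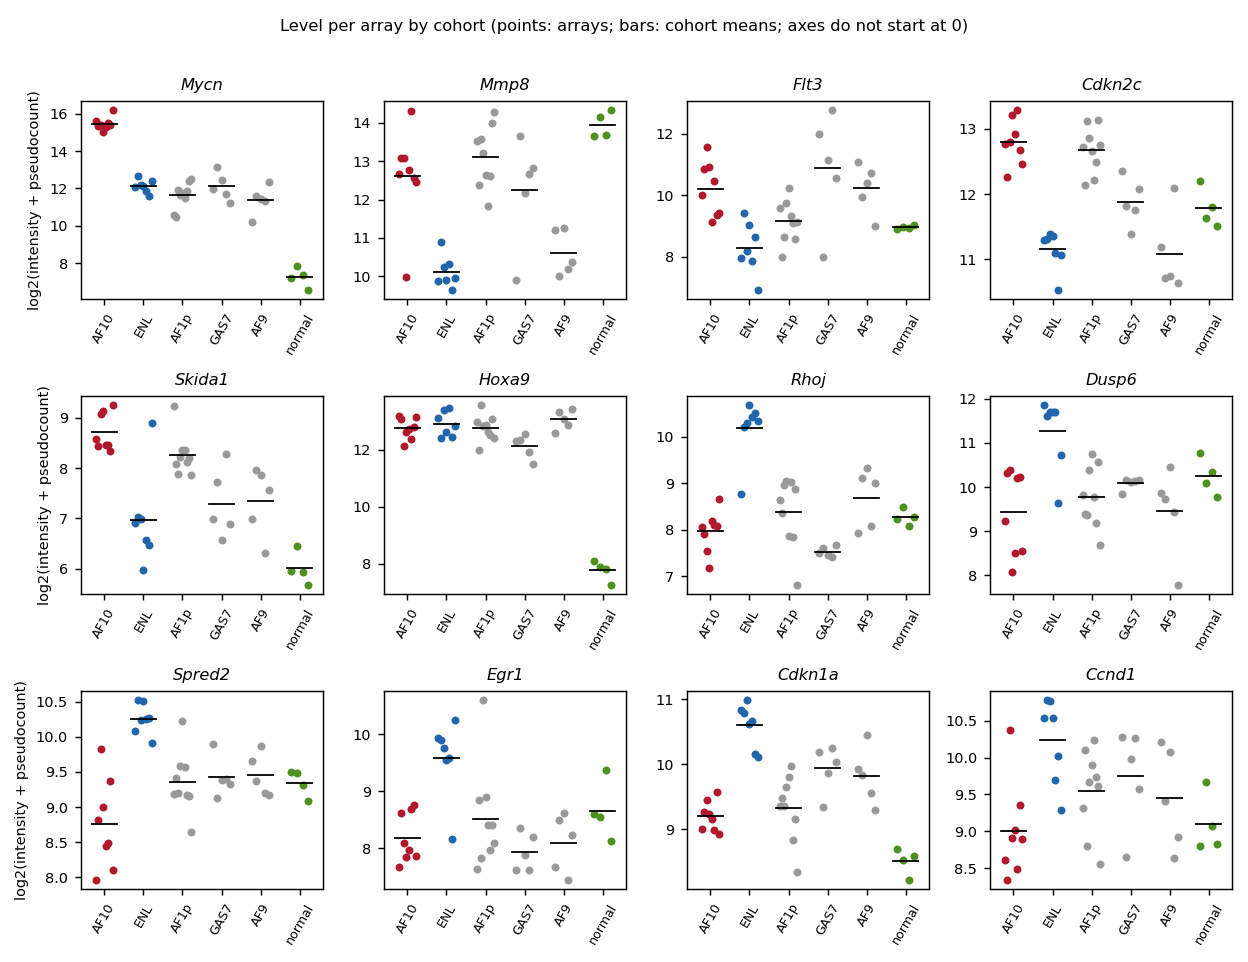
Level of 12 genes on each array (points) with cohort means (bars), on a log2(intensity + 46.1) axis that does not start at 0, for MLL-AF10 (red), MLL-ENL (blue), the 3 other fusion cohorts (grey) and normal marrow (green). The MLL-AF10 points of Mycn lie above all others, those of MLL-AF10 and MLL-ENL do not overlap for Cdkn2c, Rhoj, Spred2 and Cdkn1a, and those of Hoxa9 overlap.

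The HoxA genes are the best known targets of MLL fusions. None of 8 measured HoxA genes passed limma's adjusted threshold, and 2 of 8 had an unadjusted p under 0.05 (18% of all genes did). Hoxa9 ran from 12.15 through 12.76 to 13.18 in MLL-AF10 and from 12.41 through 12.85 to 13.47 in MLL-ENL, well above the 7.27 to 8.11 of normal marrow. The difference was -0.14 (95% interval -0.56 to 0.28, limma adjusted p = 0.777). Hoxa10 differed by -0.47 (95% interval -1.04 to 0.10, limma adjusted p = 0.388). Hoxa7 was nearest to a call, at -1.08 ± 0.33 (limma adjusted p = 0.0657), with 5 of 7 MLL-ENL mice above every MLL-AF10 mouse. Hoxa7 was called with those Rab5c and Prrc2a array sets as a term (-1.16, limma adjusted p = 0.0396), in 2 further alternatives and without MLL-AF10_783A or MLL-ENL_760. Meis1, the DNA-binding partner of HOXA9, gave -0.25 (limma adjusted p = 0.622). The HoxB genes Hoxb2, Hoxb3, Hoxb4 and Hoxb7 gave 0.64, -0.34, -0.70 and -0.19, and none was called by limma (1 at an unadjusted p under 0.05).

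Of 18 measured MLL fusion targets 2 were called, both higher in MLL-AF10, beside 0.825% of all genes. Flt3, the receptor tyrosine kinase of early progenitors, ran from 9.12 through 10.23 to 11.59 in MLL-AF10 and from 6.93 through 8.18 to 9.41 in MLL-ENL. It lay above every MLL-ENL mouse in 6 of 8 MLL-AF10 mice, with MLL-AF10_797A and MLL-AF10_802A inside the MLL-ENL range (1.92 ± 0.46, limma adjusted p = 0.0191). That call was lost without MLL-ENL_774, the lowest. Jmjd1c, a histone demethylase of the JmjC family, did not overlap, at 11.55 to 12.45 against 10.95 to 11.47 (0.65 ± 0.16, limma adjusted p = 0.0180). The call was lost with the 3′ to 5′ ratio of actin or of Gapdh as a covariate. Another Jmjd1c probe set was called (0.87), and a further one was not (0.44). The remaining targets, among them Pbx3 (0.76), Eya1 (0.88), Mef2c (0.61) and Cdk6 (-0.45), were not called.

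The genes of MLL, its partners and the DOT1L complex were not called by limma (0 of 11, and 3 at an unadjusted p under 0.05). Mllt10, the mouse gene of AF10, was closest: 10.98 through 11.28 to 11.61 in MLL-AF10 and 10.52 through 10.86 to 11.06 in MLL-ENL (0.50 ± 0.14, limma adjusted p = 0.0533), with 7 of 8 MLL-AF10 mice above every MLL-ENL mouse. It passed the threshold in 12 of 20 alternatives. Its probe sets did not move alike. Among the 29004 probe sets kept, the Mllt10 probe set 1442070_at differed by 1.21 ± 0.22 (limma adjusted p = 0.00195), and 1420869_at (0.18) and 1438525_at (0.06) were not called. Mllt1, the gene of ENL, gave 0.43 (95% interval -0.13 to 0.99, limma adjusted p = 0.428). The other values were -0.02 for Dot1l, -0.06 for Kmt2a, 0.29 for Mllt3 and -0.20 for Mllt6. Whether any probe set reads the viral fusion RNA was not tested. Psip1, which tethers MLL to chromatin, and Skp1, an adaptor of ubiquitin ligases, did not overlap between the groups but were not called (-0.59, limma adjusted p = 0.0954, and -0.55, limma adjusted p = 0.0854).

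Of 16 genes of the super elongation and PAF complexes, which act beside ENL, 2 were called higher in MLL-AF10 (beside 0.825% of all genes): the elongation factor Ell2 (1.02 ± 0.28, limma adjusted p = 0.0461) and cyclin T2, Ccnt2 (0.56 ± 0.15, limma adjusted p = 0.0446). Both calls were lost in 12 of the 15 fits that each left out 1 array. The other Ccnt2 probe sets, at -0.13 to 0.26, were not called. Aff1 (-0.07), Aff4 (-0.14), Cdk9 (0.28) and Ctr9 (-0.43) were not called. The stem cell maintenance genes the study chose on these samples, Myb (-0.28), Cbx5 (-0.03) and Hmgb3 (-0.84, limma adjusted p = 0.0789), were not called, and that choice makes them no independent evidence.

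**Figure D3:**
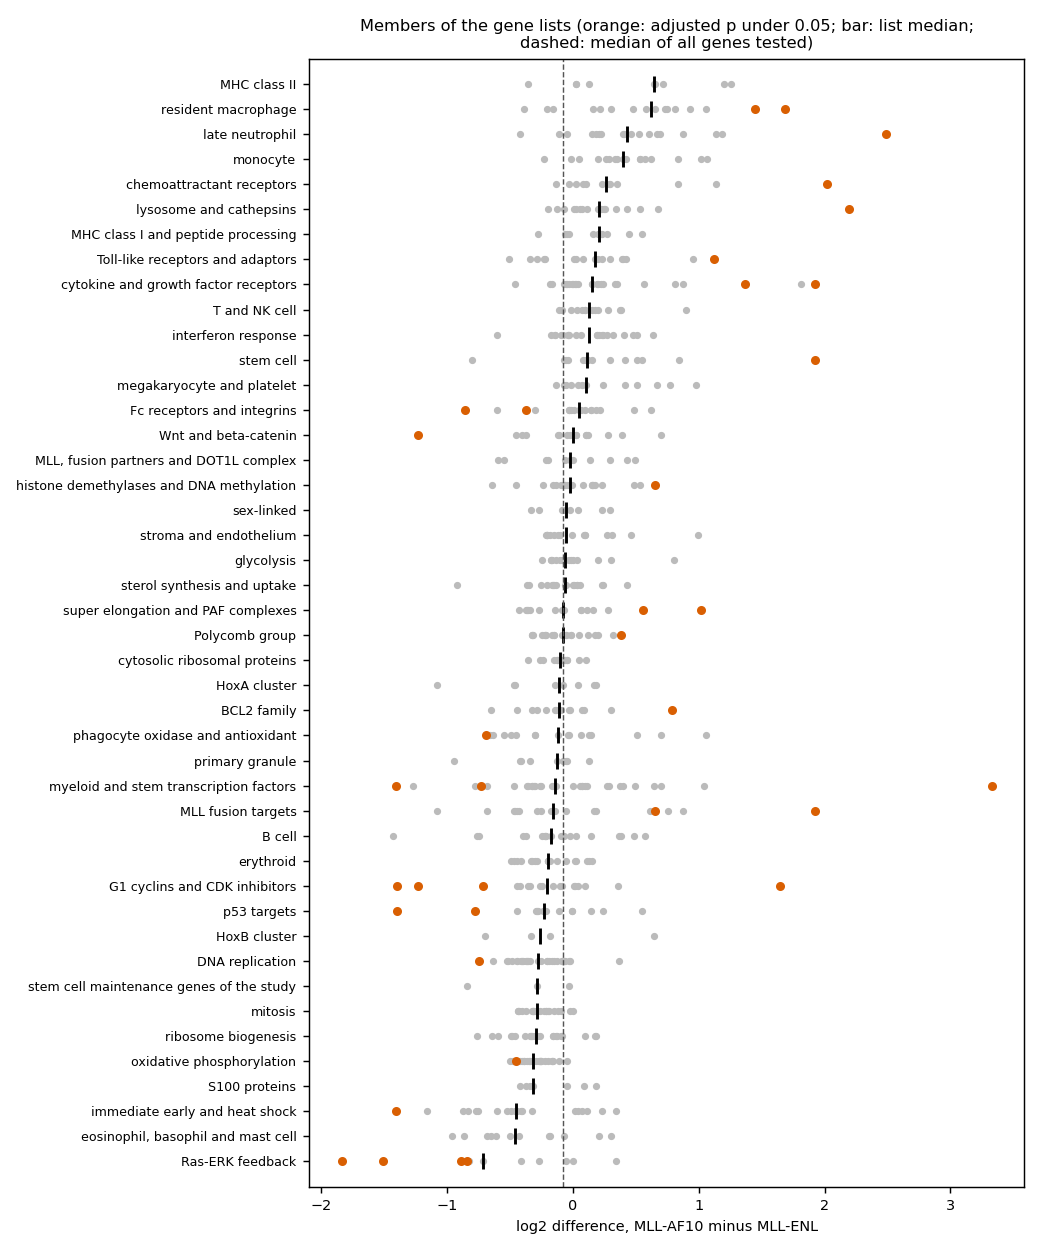
Log2 difference between MLL-AF10 and MLL-ENL (x axis) for each measured member of the 44 gene lists (points, called members in orange), with each list's median as a bar and the median of all genes, -0.08, as a dashed line. Ras-ERK feedback lies farthest to the left with 4 called members, and MHC class II farthest to the right with none.

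Several genes of mature phagocytes were higher in MLL-AF10. Mmp8, the collagenase of neutrophil granules, ran from 9.99 through 12.71 to 14.32 in MLL-AF10 and from 9.65 through 9.96 to 10.90 in MLL-ENL. In 7 of 8 MLL-AF10 mice it lay above every MLL-ENL mouse, and MLL-AF10_783A, at 9.99, did not. The difference was 2.49 ± 0.44 (limma adjusted p = 0.000910), or 5.62-fold. Fpr2, a receptor for bacterial and inflammatory peptides, showed the same mouse apart: MLL-AF10_783A at 9.54 and the other 7 from 11.87 to 12.94, against 8.93 to 11.37 in MLL-ENL (2.02 ± 0.47, limma adjusted p = 0.0150). The Fpr2 call was lost with the actin or Gapdh 3′ to 5′ ratio as a covariate.

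Gpnmb, a glycoprotein of lysosomes and phagocytes, ran from 9.66 to 12.40 and from 7.89 to 9.70 (2.20 ± 0.35, limma adjusted p = 0.000261), and only 1 of the 8 MLL-AF10 mice fell within the MLL-ENL range. Tlr2, a receptor for bacterial lipoproteins, did not overlap, at 9.32 to 10.46 against 8.56 to 9.28 (1.12 ± 0.20, limma adjusted p = 0.00138). The apolipoprotein Apoe (1.68 ± 0.45, limma adjusted p = 0.0382), the receptor kinase Mertk (1.44 ± 0.37, limma adjusted p = 0.0303) and Il6st, the signalling chain shared by interleukin 6 family receptors (1.37 ± 0.36, limma adjusted p = 0.0353), were called with overlapping ranges. They lost the call in 12, 6 and 9 of the 15 fits that each left out 1 array. No other Il6st probe set was called (0.64 to 1.29), and the Il6st call was lost with the mean of its probe sets.

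The marker lists of these cells held few calls. Over all genes 0.825% were called higher in MLL-AF10. Of 18 late neutrophil genes 1 (Mmp8) was higher in MLL-AF10, of 17 monocyte genes none, of 16 resident macrophage genes 2 (Apoe and Mertk) and of 9 MHC class II genes none by limma (5 monocyte and 4 class II genes had an unadjusted p under 0.05). Their medians were 0.43, 0.40, 0.62 and 0.64, beside -0.08 for all genes, and 15 of 18, 15 of 17, 13 of 16 and 8 of 9 differences were positive. The granule proteins Ltf (1.18, limma adjusted p = 0.311), Ngp (0.67) and S100a8 (0.18) and the neutrophil receptor Cxcr2 (1.13, limma adjusted p = 0.228) were not called. The class II genes H2-Aa (1.25, limma adjusted p = 0.116) and Cd74 (1.20, limma adjusted p = 0.137) were above every MLL-ENL mouse in 6 of 8 MLL-AF10 mice each. The summed intensity of the late neutrophil list ran from 77348 to 503587 in MLL-AF10 and from 102654 to 290126 in MLL-ENL, and that of the macrophage list from 8240 to 22097 and from 6762 to 14036. The part of mature cells in the differences of Mmp8, Fpr2, Apoe and Mertk was not tested. Primary granule genes of promyelocytes (0 of 9 called by limma, 1 at an unadjusted p under 0.05, median -0.13) included Mpo at 0.13 and Elane at -0.13.

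Markers of other lineages were not called. None of 19 erythroid, 19 B cell, 14 T and NK cell, 13 megakaryocyte, 16 stromal and 12 eosinophil, basophil or mast cell genes was called by limma, and 2, 3, 1, 2, 1 and 2 had an unadjusted p under 0.05 in the same order. The erythroid list summed to 4855 to 7090 in MLL-AF10 and 6063 to 7060 in MLL-ENL, against 156768 to 234765 in normal marrow. One immunoglobulin segment outside these lists, Igkv9-120, was called (-1.65 ± 0.45, limma adjusted p = 0.0422), with the call lost in 11 of the 15 fits that each left out 1 array. Its other probe set (-0.16) was not called. Xist, the RNA of the inactive X chromosome, lay between 14.22 and 14.94 in all 15 mice, and none of 8 sex-linked genes was called. It lay between 8.18 and 9.09 in normal marrow, and between 8.74 and 10.66 in the MLL-AF9 mice other than MLL-AF9_305 (14.67). Comparisons with normal marrow or with the mean of the other cohorts thus set mice of unlike Xist level against each other. The part of sex in those comparisons was not tested gene by gene.

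Several further genes separated the groups. Higher in MLL-AF10 were Bbx, an HMG box protein (10.55 to 12.14 against 8.49 to 9.62, difference 1.96 ± 0.25, limma adjusted p = 5.55e-06), the sialyltransferase St3gal6 (1.72 ± 0.31, limma adjusted p = 0.00141), Dennd5b (1.87 ± 0.31, limma adjusted p = 0.000433) and Rhobtb3 (1.76 ± 0.29, limma adjusted p = 0.000418). None of these 4 overlapped. The other 4 kept Bbx probe sets gave 1.40 to 2.48, whereas both other St3gal6 probe sets (0.43 and 0.24), the other Rhobtb3 probe set (0.81) and another Dennd5b probe set (0.73) were not called. The calls of St3gal6 and Rhobtb3 were lost without probe sets that may read several genes. G730013B05Rik, next to Bbx in the RefSeq order and named after its values were seen, differed by 1.40 ± 0.22 (limma adjusted p = 0.000195). The kallikrein Klk1b27 (1.97 ± 0.40, limma adjusted p = 0.00433) and the microtubule-associated Eml5 (1.71 ± 0.41, limma adjusted p = 0.0184) overlapped between the groups, and Eml5 lost its call without MLL-ENL_702 or MLL-ENL_703.

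Skida1 lies next to Mllt10 in the RefSeq order. It ran from 8.34 to 9.26 in MLL-AF10 and in MLL-ENL from 5.98 to 7.03 in 6 mice, with MLL-ENL_774 at 8.89 (1.74 ± 0.30, limma adjusted p = 0.000651). A930004D18Rik, a non-coding RNA gene close by on the same chromosome and named after its values were seen, gave 1.74 ± 0.30 (limma adjusted p = 0.000790). The X-linked zinc finger genes Zxdb (9.93 to 10.91 against 8.33 to 9.69, 1.51 ± 0.20, limma adjusted p = 1.40e-05) and Zxda (1.42 ± 0.34, limma adjusted p = 0.0181), near-identical copies whose probes may read each other's RNA, also differed and were named after their values were seen. Along the RefSeq order 14 pairs of neighbouring measured genes were both called, 11 of them in the same direction, of 13288 neighbouring pairs.

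Largest among the differences toward MLL-ENL was that of Rhoj. It ran from 7.17 through 8.07 to 8.67 in MLL-AF10 and from 8.78 through 10.35 to 10.69 in MLL-ENL, with no overlap and MLL-ENL_701 lowest (-2.22 ± 0.28, limma adjusted p = 5.03e-06), or 4.66-fold. Penk, the enkephalin precursor, ran from 8.32 through 10.75 to 11.99 and from 10.93 through 12.48 to 13.21 (-1.92 ± 0.46, limma adjusted p = 0.0184). Both groups lay above normal marrow for Penk (7.08 to 8.03).

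Igfbp4, which binds insulin-like growth factors, differed by -1.52 ± 0.27 (limma adjusted p = 0.000818), and all 5 other Igfbp4 probe sets were called, at -2.13 to -1.45. Il22ra2, the soluble decoy receptor of interleukin 22, ran from 8.17 to 9.35 in MLL-AF10 and from 8.72 to 12.11 in MLL-ENL, where MLL-ENL_701 and MLL-ENL_742 lay within the MLL-AF10 range (-1.76 ± 0.34, limma adjusted p = 0.00290). The heat shock protein Hspa2 (-1.55), the ubiquitin ligase adaptor Spsb4 (-1.57) and muscle creatine kinase Ckm (-1.43) were called as well, at limma adjusted p between 0.00321 and 0.00828. The other Ckm probe set gave -0.38 and was not called (limma adjusted p = 0.549 over probe sets).

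Among genes named after their values were seen, Lonrf3 (-1.26 ± 0.15, limma adjusted p = 2.76e-06), Arid2, a chromatin remodelling subunit (-1.26 ± 0.22, limma adjusted p = 0.000763), the TGF-beta pseudoreceptor Bambi (-1.20 ± 0.25, limma adjusted p = 0.00553) and the neighbouring Dcun1d1 (-1.25 ± 0.19, limma adjusted p = 8.85e-05) and Mccc1 (-0.85 ± 0.16, limma adjusted p = 0.00321) did not overlap. The other Mccc1 probe set gave -0.03, and the Mccc1 call was lost with the mean of its probe sets. Erg (-0.73, limma adjusted p = 0.0452) and its neighbour Ets2 (-0.80, limma adjusted p = 0.0497), both ETS factor genes, were called but lost their calls in 10 and 12 of the 15 fits that each left out 1 array. The other Ets2 probe set went the other way (0.20) and was not called.

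Lists of proliferation and energy genes had few calls and differences mostly toward MLL-ENL. Over all genes 1.52% were called higher in MLL-ENL, and the median difference was -0.08. Of 29 DNA replication genes 1 was called (Rfc4, the clamp loader subunit, -0.75 ± 0.20, limma adjusted p = 0.0366), of 24 mitosis genes none (4 at an unadjusted p under 0.05), of 24 ribosome biogenesis genes none (8) and of 27 oxidative phosphorylation genes 1 (Uqcrc2, of complex III, -0.45 ± 0.13, limma adjusted p = 0.0486). Their medians were -0.28, -0.28, -0.29 and -0.32, and 28 of 29, 23 of 24, 21 of 24 and 27 of 27 differences were negative. At an unadjusted p under 0.05 there were 10 of 29 DNA replication and 16 of 27 oxidative phosphorylation genes, beside 18% of all genes. The Rfc4 call was lost in 10 and the Uqcrc2 call in 13 of the 15 fits that each left out 1 array. With the values as deposited the median of all genes was 0.00 in place of -0.08. Of 14 BCL2 family genes only the death gene Bmf was called (0.79 ± 0.22, limma adjusted p = 0.0444), beside 0.825% of all genes called higher in MLL-AF10. Bmf lost that call in 12 such fits, and its other probe set (0.38) was not called. The antioxidant enzyme subunit Gclm (-0.69 ± 0.18), the Fc receptor Fcgr3 (-0.85 ± 0.24), the phagocytosis signal Cd47 (-0.37 ± 0.10) and the Polycomb protein Jarid2 (0.38 ± 0.10) were called at limma adjusted p between 0.0353 and 0.0452. Each of these 4 lost its call in at least 10 of the 15 fits. The other kept probe sets of Gclm (-0.44) and Jarid2 (0.23 and 0.15) were not called.

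Each group was also set against the mean of the other fusion cohorts. MLL-AF10 differed from that mean in 26 genes (0.195%), 16 higher (0.12%) and 10 lower (0.075%). MLL-ENL differed in 577 genes (4.33%), 416 higher (3.12%) and 161 lower (1.21%). Of the 12 genes with the largest difference toward MLL-AF10, 4 were called in MLL-AF10 against the others: Mycn, St3gal6 (1.96 ± 0.26), Bbx (1.05 ± 0.20) and Skida1 (1.09 ± 0.24). Like Mycn, St3gal6 lay higher in every MLL-AF10 mouse (9.28 or above) than in those 3 cohorts (9.17 or below). Bbx and Skida1 did not: in MLL-AF1p Bbx ran from 10.99 to 12.84, past the highest MLL-AF10 mouse (12.14). Skida1 ran from 7.86 to 9.23 in MLL-AF1p, overlapping MLL-AF10 (8.34 to 9.26). Of the same 12 genes, 7 were called lower in MLL-ENL, among them Mmp8 (-1.87 ± 0.38), Flt3 (-1.80 ± 0.40) and Eml5 (-1.86). Flt3 in MLL-AF10 lay 0.12 from the others' mean (limma adjusted p = 0.959). Of the 12 largest toward MLL-ENL, none was called in MLL-AF10 and 10 were called higher in MLL-ENL, led by Il22ra2 (2.04), Rhoj (1.98 ± 0.24) and Dusp6 (1.51 ± 0.32). Both contrasts use the same 19 arrays, so these values are only set side by side. The 12 genes in each direction were also chosen on these same MLL-AF10 and MLL-ENL arrays. That choice favours calls in the chosen direction, so the counts are no separate evidence. Cdkn2c was called in both, at 0.92 ± 0.16 in MLL-AF10 and -0.72 ± 0.17 in MLL-ENL, while among the other cohorts it ranged widely, from means of 12.68 in MLL-AF1p to 11.08 in MLL-AF9.

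**Figure D4:**
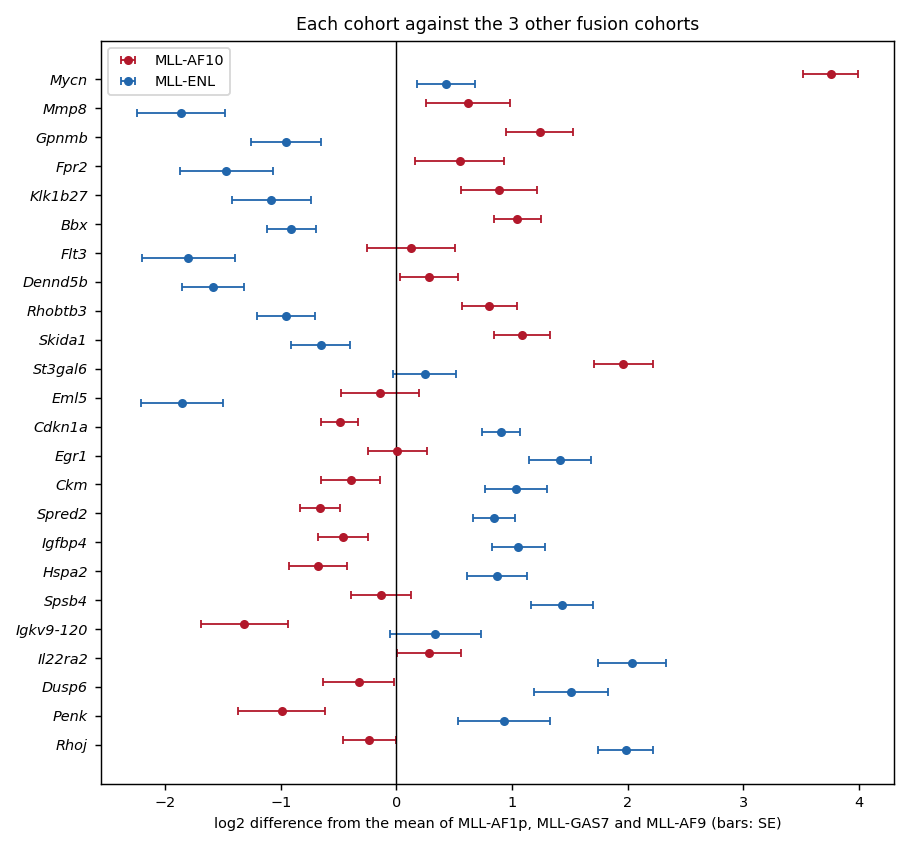
Log2 difference of MLL-AF10 (red) and MLL-ENL (blue) from the mean of MLL-AF1p, MLL-GAS7 and MLL-AF9 (x axis, bars are SE) for the 12 called genes with the largest difference in each direction. Mycn reaches 3.76 in red and 0.43 in blue, and Rhoj, Dusp6 and Il22ra2 lie between 1.51 and 2.04 in blue while their red points lie between -0.33 and 0.28.

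The arrays fell into 2 sets by the level of Rab5c and Prrc2a, with a gap of 1.16 log2 units that no label names. The low set holds 5 MLL-AF10 and 3 MLL-ENL arrays and the high set 3 and 4. Within the low set Mycn differed by 3.37, Cdkn2c by 2.08, Spred2 by -1.12, Cdkn1a by -1.03 and Dusp6 by -1.21, and within the high set by 3.43, 1.16, -2.05, -1.74 and -2.35. Each kept its call within the high set. Within the low set Mycn and Cdkn2c kept theirs, but Spred2, Cdkn1a and Dusp6 did not (limma adjusted p = 0.210, 0.210 and 0.559). All 312 genes had the same direction in both sets, but they were called on the 2 sets together, which favours this. Within the low set alone 23 of the 312 were still called, and within the high set alone 43. With the set as a term 337 genes were called, 289 of the 312 among them, and a test of the difference between sets called 0 genes by limma (575 at an unadjusted p under 0.05). The 3′ to 5′ ratios, signs of RNA quality, were on average higher in MLL-AF10, though neither passed an adjusted p under 0.05. The 3′ to 5′ ratio of Gapdh averaged -0.21 in MLL-AF10 and -0.34 in MLL-ENL (log2, exact permutation p = 0.0255, adjusted 0.105, 2-sided), and that of actin 0.399 and 0.265 (exact permutation p = 0.0632, adjusted 0.105). With the Gapdh ratio as a covariate 163 genes were called, 138 of the 312 among them, 80 higher in MLL-AF10 and 83 in MLL-ENL. Mycn (3.12), Cdkn2c (1.61), Spred2 (-1.32), Dusp6 (-1.85) and Cdkn1a (-1.34) kept their calls.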

How the data were processed

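The authors deposited intensity values on a linear scale for every probe set of 38 arrays. These came already scaled: with 2% trimmed at both ends, all arrays averaged 500.0. The software is not stated in the sources used here. Of 45101 probe sets, 34945 carry 1 gene symbol, 932 several and 9160 none in the annotation used, besides 64 controls, and 34741 matched RefSeq, which changed 0 symbols. Values became log2(intensity + 46.1), where 46.1 is the 25th percentile, which understates changes of dim genes. Array medians spanned 0.537, above the limit of 0.5, so arrays were shifted to 1 median. Probe sets had to exceed the array median on 4 arrays or more. For the 6007 genes with several, the one with the highest mean stood for the gene. One model of 6 group means on 38 arrays was fitted with limma 3.58.1 in R 4.3.3 (32 residual degrees of freedom). Tests are 2-sided. Named are the 12 called genes with the largest difference in each direction, up to 4 called members of each of 44 lists, and members of lists no longer than 12, leaving out predicted genes, clone names and sex-linked genes, and others are said to be named after their values were seen. Members and lists were chosen with earlier results of these data known. On simulated data with 13333 genes, the fit called 14 of 50 genes changed 1.5-fold, 39 of 50 changed 2-fold and 49 of 50 changed 3-fold. The labels name separate mice, and their number limits precision. Alternatives tried were other scalings, pseudocounts, filters and probe set rules, fewer arrays, weights and covariates.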

Additional observations from a re-analysis of the deposited data

Results flagged for a closer look

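In groups of 7 or 8 mice, 1 array lay far from the rest of its group in 14 of 100 groups of values checked. About 1 in 20 would be flagged among independent values. These groups are mostly called genes read on the same 15 arrays, so they are not independent and 14 cannot be set against that rate. MLL-AF10_783A was the array apart in 5 of the 14. It was lowest for Mmp8 (9.988, nearest 12.46), Fpr2 (9.537, nearest 11.87), Il6st (9.365, nearest 10.26) and Bmf (8.34, nearest 9.288), and highest for Rhobtb3 (10.04, nearest 8.686). MLL-AF10_798A was highest for Mycn (16.21, nearest 15.59) and for the hybridisation controls (12.93, log2), and MLL-AF10_799A for Gclm (10.92, nearest 10.17).

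Among MLL-ENL mice, MLL-ENL_742 was lowest for Cdkn2c (10.54, nearest 11.07) and Egr1 (8.158, nearest 9.554). MLL-ENL_774 was highest for Skida1 (8.89, nearest 7.034) and Igkv9-120 (10.84, nearest 9.816). MLL-ENL_701 was lowest for Rhoj (8.775, nearest 10.22), and MLL-ENL_760 highest for Klk1b27 (7.614, nearest 6.236).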

How the results depend on the processing

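All 312 called genes kept their direction under every alternative that still tested them, except 3 with the mean of a gene's probe sets and 3 of the 269 still represented without probe sets that may read several genes. Mycn, 9630013D21Rik, Cdkn2c, Zxdb and Lonrf3 kept their calls throughout. Counts moved more. They are given as the total, those higher in MLL-AF10 and those higher in MLL-ENL, against 312, 110 and 202. Values as deposited gave 558, 281 and 277, quantile normalization 505, 247 and 258, a pseudocount of 200 gave 514, 169 and 345 (28 and 19 at least 2-fold), the 15 arrays alone 643, 164 and 479, and array weights 1076, 286 and 790 (65 at least 2-fold in MLL-ENL). Genes higher in MLL-ENL fell to 128, 118 and 95 with the Y-linked level, the hybridisation controls and the actin ratio as covariates. The Gapdh ratio gave 163, 80 and 83. The low array set alone gave 32, 25 and 7 (22 and 5 at least 2-fold, 0 Ras-ERK feedback genes by limma, with 1211 genes at an unadjusted p under 0.05), and the high set 54, 18 and 36 (18 at least 2-fold in MLL-AF10, 2 feedback genes). Leaving out 1 array gave 155 (without MLL-ENL_741) to 404 (without MLL-AF10_783A), 62 to 139, and 90 to 277, with 3 to 4 feedback genes. The Gapdh ratio, the array sets and the removal of the 5 arrays with the brightest hybridisation controls were chosen after seeing the data. The cause of these shifts was not tested.

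Against the mean of the 3 other cohorts, MLL-AF10 (26 genes) gave 54 as deposited and after quantile normalization, 51 with a pseudocount of 200, 53 with weights, 6 with the Y-linked level, 10 with the actin ratio, 4 and 12 in the low and high sets, 15 without the 5 arrays, and 10 to 40 when 1 array was left out. MLL-ENL (577) gave 376 without probe sets that may read several genes, 1008 with weights, 379 with the Gapdh ratio, 58 and 66 in the sets, 367 without the 5 arrays, and 229 to 605. No paired analysis was possible because the groups share no mouse numbers. Differences under 2-fold can be missed with 8 and 7 mice.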

Other observations

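Of the 29004 probe sets kept, 834 were called. Those with no single gene symbol here numbered 5102, a similar share of which were called: 155, with 123 higher in MLL-AF10 and 32 in MLL-ENL. The directions of all 834 were not counted, so these 2 counts have no background of probe sets beside them. Of the genes tested, 0.825% were called higher in MLL-AF10 and 1.52% in MLL-ENL. The largest differences in the whole table are among the probe sets with no single symbol. Probe set 1431213_a_at lay between 11.20 and 13.72 in MLL-AF10 and between 6.92 and 8.41 in MLL-ENL (4.76 ± 0.48, limma adjusted p = 8.36e-08). Probe set 1431214_at lay between 9.36 and 11.87 and between 6.11 and 8.09 (3.43 ± 0.42, limma adjusted p = 3.65e-06). They were chosen after their values were seen, and the annotation used lists no gene for them.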
